A study of Mus musculus with 8 samples.

Results

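Orphan and adhesion Gpr receptors are described here across repopulating microglia, bone-marrow macrophages and wild-type microglia. The members are the 94 genes, of 23413 in the expression table, whose symbol is Gpr followed directly by a digit. G protein-coupled receptors cross the cell membrane several times and pass a signal from outside the cell to heterotrimeric G proteins within. Many Gpr symbols were given before a ligand was known, and some of these receptors now have lipid, proton, peptide or matrix ligands. Adhesion receptors carry a long extracellular region that is cut at an autoproteolysis site. Microglia, the resident macrophages of the brain, are known for high levels of Gpr34 and Gpr56. Some symbols of the series belong to proteins of the Golgi or lysosome that are not classical receptors.

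RNA was sequenced in 8 mouse libraries. Repopulating microglia gave 3 libraries with the strain label DTRmg, bone-marrow macrophages gave 3 with the label DTRmg, and wild-type microglia gave 2 with the label DTR. The titles of the bone-marrow macrophage samples read bm_micro, and their columns, named mono, were assigned by exclusion. One protocol text is repeated for every sample, wild type included. It describes tamoxifen, 2 mg given subcutaneously on postnatal days 12 and 14, then 500 ng diphtheria toxin given 3 times into the peritoneum to deplete microglia, and papain digestion, a Percoll gradient and flow sorting of brain cells. The labels do not say which group received which agent, what the bone-marrow macrophages were isolated from, what drives the toxin receptor, the age at collection, or whether replicates were separate animals. The p-values thus measure only the spread between these libraries, which may be technical in part. In both comparisons with wild type the group cannot be told apart from the strain label.

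Total reads counted in genes ran from 5918944 to 12476427 per library. Values are the authors' normalised counts, which are gene counts scaled by 1 size factor for each library. Summed over 8 microglia markers, they lay at 239854 to 280453 in repopulating microglia, 92508 to 103115 in bone-marrow macrophages and 368851 to 404205 in wild-type microglia. Sall1, a defining transcription factor of microglia, stood at 2594, 1864 and 6101 in repopulating microglia, 35.8, 9.55 and 15 in bone-marrow macrophages and 3180 and 4056 in wild-type microglia. No list of cell type markers had a member at 0 in every library. Replicate 3 of the repopulating microglia stood apart from replicates 1 and 2, with a correlation of log2 levels across the tested genes of 0.938 and 0.918, against 0.979 between replicates 1 and 2. Genes are not independent replicates in these correlations. In such bulk libraries, fewer cells of a type and less RNA per cell cannot be told apart.

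Most Gpr genes had no read or few reads in these cells. No read was counted for 20 of the 94 in any library, where a count of 0 allows up to 3 reads in a library, and another 41 stayed below the minimum for testing, which was 10 normalised counts in at least 2 libraries. The remaining 33 members, or 35.1% of 94, were tested, against 48.8% of all genes of the table. Every library of a group held at least 10 normalised counts for 23 members in repopulating microglia, 27 in bone-marrow macrophages and 27 in wild-type microglia. At 100 normalised counts these numbers were 19 in repopulating microglia, 15 in bone-marrow macrophages and 21 in wild-type microglia. There were 21 members with at least 10 normalised counts in all 8 libraries and 15 with at least 100.

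A few members carried most of the Gpr reads. Gpr genes took 0.375, 0.354 and 0.407 percent of the reads in repopulating replicates 1 to 3, 0.156, 0.176 and 0.144 percent in bone-marrow macrophages 1 to 3 and 0.79 and 0.774 percent in wild-type microglia 1 and 2. The 3 groups did not overlap in this share. Gpr34 alone made up 43.7, 48.2 and 28.1 percent of the Gpr reads in repopulating microglia, 26.2, 31.1 and 22.6 percent in bone-marrow macrophages and 56.2 and 53.7 percent in wild-type microglia. Gpr65 made up 1.59, 3.08 and 0.552 percent in repopulating microglia, 20.8, 18.7 and 18.8 percent in bone-marrow macrophages and 0.245 and 0.231 percent in wild-type microglia. Per kilobase of exon, the scale on which levels of different genes can be compared, Gpr34 ranked highest of all members in each group, at 6190 ± 1570 in repopulating microglia, 1471 ± 399.7 in bone-marrow macrophages and 16352 ± 1396 in wild-type microglia in normalised counts per kilobase (SD, n = 3, 3 and 2). The next ranks on this scale were Gpr84 and Gpr56 in repopulating microglia, Gpr65 and Gpr183 in bone-marrow macrophages, and Gpr56 and Gpr84 in wild-type microglia. In repopulating microglia Gpr84 and Gpr56, at 1535 ± 69.3 and 1238 ± 823 (SD, n = 3), did not differ beyond their spread. In bone-marrow macrophages the spreads of Gpr34 and Gpr65, at 1071 ± 113, overlapped, and those of Gpr183 and Gpr84, at 405 ± 43.2 and 382 ± 53.7, did too (SD, n = 3).

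**Figure D1:**
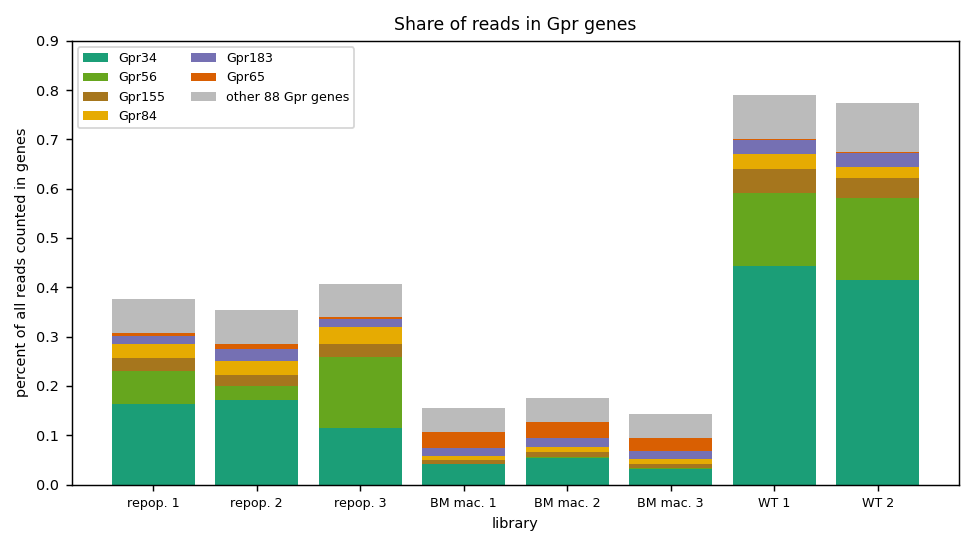
Stacked bars give the percent of all reads counted in genes that fell on Gpr genes in each library, for 6 named members and the other 88 together. The wild-type bars reach 0.79 and 0.774 percent and the bone-marrow macrophage bars at most 0.176 percent, with Gpr65 visible as a band mainly in the bone-marrow macrophages.

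Each pair of groups was compared with limma on log2(normalised count + 1), with p-values adjusted by Benjamini-Hochberg over all 11415 tested genes. Fold changes on this scale understate the change of genes with low counts. Of the 33 tested members, 2 were higher and 5 lower in repopulating than in wild-type microglia (21.2%, against 8.61% of all tested genes, 4.86% higher and 3.75% lower). In bone-marrow macrophages relative to wild-type microglia, 3 were higher and 18 lower (63.6%, against 43.5% of all tested genes, 21.3% higher and 22.2% lower). In repopulating microglia relative to bone-marrow macrophages, 15 were higher and 5 lower (60.6%, against 30.9% of all tested genes, 16% higher and 14.9% lower). The median log2 fold of the tested members was -0.33, -0.98 and 0.67 in these comparisons, against -0.02, -0.01 and 0.00 over all tested genes. With libraries scaled to equal totals, the calls over the members were 3 higher and 6 lower, 4 higher and 18 lower, and 11 higher and 6 lower. The comparisons share groups, so their counts are not independent. Groups did not overlap for 18, 27 and 26 of the 33 members, against 40.4%, 75.8% and 46% of all tested genes. The mean log2 level of repopulating microglia lay between those of the other groups for 19 members (57.6%, against 55.5% of tested genes), a share near that of all genes. It lay above both for 10 members (30.3%, against 21.7%) and below both for 4 (12.1%, against 22.8%), among them Gpr18, Gpr132 and Gpr141.

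**Figure D2:**
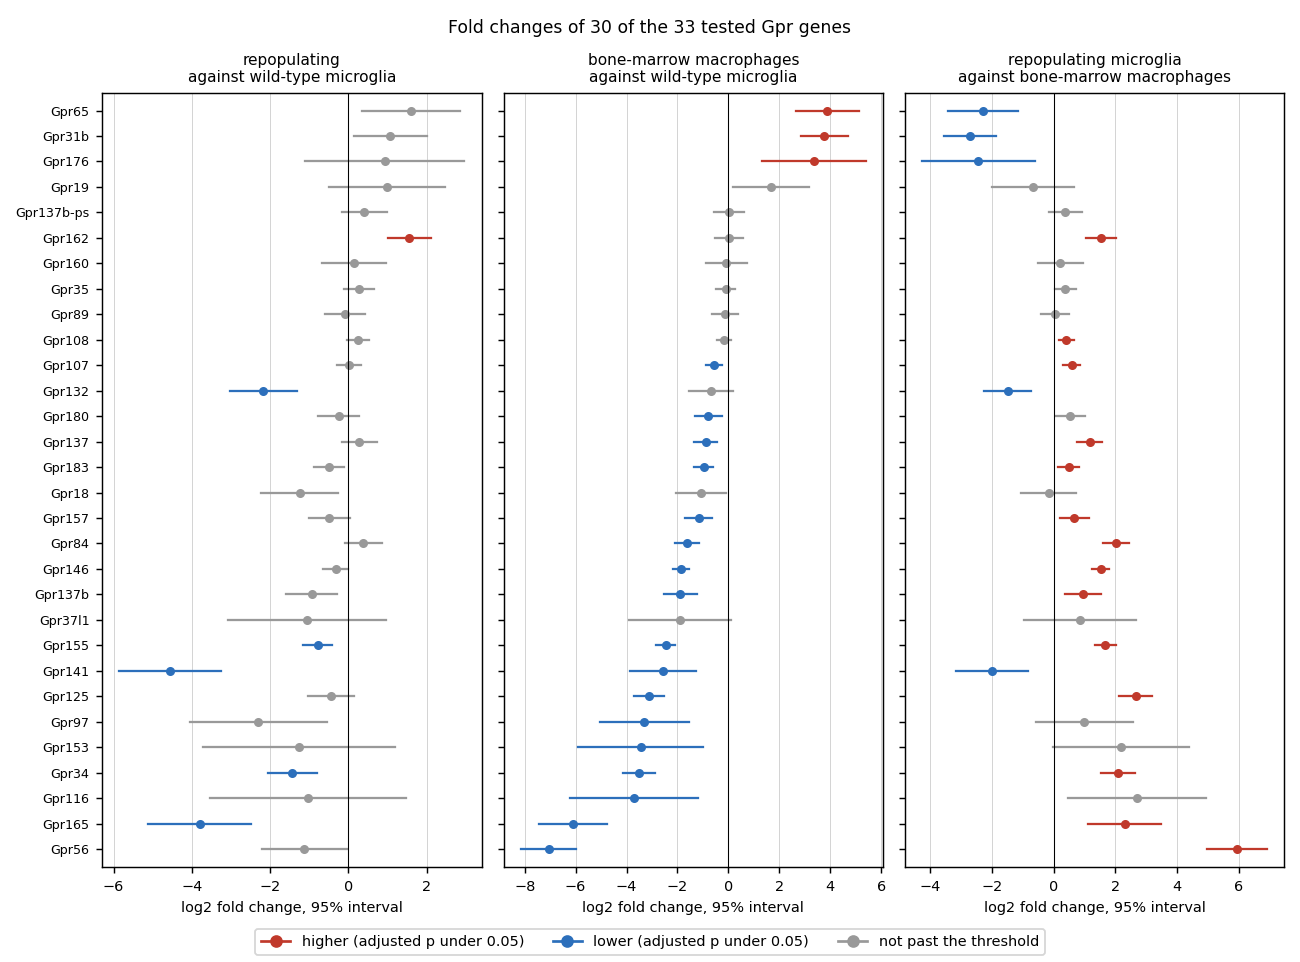
Points give the log2 fold change and lines its 95% interval for 30 of the 33 tested members in each comparison, ordered by the fold in bone-marrow macrophages relative to wild-type microglia. Coloured points passed an adjusted p of 0.05. Gpr56 has the lowest fold of the middle panel, -7.06, and the highest of the right panel, 5.93.

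Sequence before the start sites is shown for the 2 members with the highest log2 fold in bone-marrow macrophages relative to wild-type microglia, Gpr65 and Gpr31b, and the 2 with the lowest, Gpr56 and Gpr165, so that the start of genes with opposite differences can be read side by side. The windows are the 250 bases before each RefSeq start (GRCm38.p6), read 5′ to 3′ on the gene's strand. Capitals mark GAGGAA, the core bound by the myeloid factor PU.1, or TGANTCA, bound by AP-1 factors, on either strand, and no matches of the motifs overlapped each other.
Gpr65, chr12:98268385-98268634, plus strand: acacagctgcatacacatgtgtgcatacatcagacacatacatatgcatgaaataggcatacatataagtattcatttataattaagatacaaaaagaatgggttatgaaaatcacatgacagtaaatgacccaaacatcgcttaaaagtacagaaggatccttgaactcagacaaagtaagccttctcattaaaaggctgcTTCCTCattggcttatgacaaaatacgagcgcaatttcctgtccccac
Gpr31b, chr17:13052281-13052530, minus strand: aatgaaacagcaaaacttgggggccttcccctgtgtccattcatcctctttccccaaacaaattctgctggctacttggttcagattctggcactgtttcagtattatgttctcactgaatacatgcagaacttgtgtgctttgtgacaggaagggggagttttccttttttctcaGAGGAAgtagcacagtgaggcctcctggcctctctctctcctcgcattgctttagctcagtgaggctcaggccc
Gpr56 first start, chr8:94976859-94977108, plus strand: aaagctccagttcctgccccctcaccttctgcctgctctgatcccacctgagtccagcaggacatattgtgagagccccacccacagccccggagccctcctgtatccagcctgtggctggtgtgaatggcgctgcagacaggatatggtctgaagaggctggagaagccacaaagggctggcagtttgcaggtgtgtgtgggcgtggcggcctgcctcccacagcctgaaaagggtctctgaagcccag
Gpr56 second start, chr8:94984149-94984398, plus strand: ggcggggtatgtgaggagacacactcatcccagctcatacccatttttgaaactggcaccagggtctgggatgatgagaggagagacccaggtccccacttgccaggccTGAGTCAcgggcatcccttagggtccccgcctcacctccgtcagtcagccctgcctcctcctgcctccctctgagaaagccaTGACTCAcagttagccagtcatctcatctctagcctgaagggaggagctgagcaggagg
Gpr165, chrX:96713218-96713467, plus strand: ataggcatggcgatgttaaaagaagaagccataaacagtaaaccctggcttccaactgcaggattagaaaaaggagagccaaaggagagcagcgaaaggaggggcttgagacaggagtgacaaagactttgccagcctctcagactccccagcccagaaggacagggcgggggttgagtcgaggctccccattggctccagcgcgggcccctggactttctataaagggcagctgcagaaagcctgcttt

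GAGGAA occurred 1 time before Gpr65 and 1 time before Gpr31b, ending 43 and 69 bases before the start, and TGANTCA occurred 2 times before the second Gpr56 start. Of all 32851 RefSeq windows of this length, 23.3% held GAGGAA and 6.75% TGANTCA. Among the 39 windows of the 27 tested members with an entry, 10 (25.6%) held GAGGAA and 2 (5.13%) TGANTCA, shares near those of all windows. A match is a run of letters and not a measured binding site.

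Of 8 receptors for lipids and metabolites, 6 were tested, and Gpr34 was the most abundant. In repopulating relative to wild-type microglia none was called higher and 1 lower, in bone-marrow macrophages relative to wild-type microglia 1 higher and 3 lower, and in repopulating microglia relative to bone-marrow macrophages 3 higher and 1 lower. The shares called were 16.7%, 66.7% and 66.7% of the 6, against 8.61%, 43.5% and 30.9% of all tested genes. Gpr34 is a receptor for lysophosphatidylserine, a lipid of stressed and dying cells, and lies inside the Cask gene on the opposite strand (GRCm38 chromosome X, 13632089 to 13640858, plus strand). Gpr34 stood at 14748, 14912 and 9150 normalised counts in repopulating microglia, 2901, 3982 and 2339 in bone-marrow macrophages and 36238 and 32113 in wild-type microglia. All 3 groups were separate, with wild-type microglia highest and bone-marrow macrophages lowest. It was lower in repopulating than in wild-type microglia by log2 -1.43 ± 0.27 (SE, as in the folds that follow, limma adjusted p = 0.018). That call was lost without either wild-type library, at adjusted p = 0.165 without wild-type replicate 1 and 0.104 without replicate 2. It fell by 3.51 ± 0.27 on the log2 scale in bone-marrow macrophages relative to wild-type microglia (limma adjusted p = 3.92e-05) and was 2.07 ± 0.25 higher in repopulating microglia than in bone-marrow macrophages (limma adjusted p = 0.000384). The libraries do not mark strand, so reads of Gpr34 and Cask in the shared stretch cannot be told apart. Gpr82, an orphan receptor that lies 20.5 kilobases further along the X chromosome, also within Cask, was not tested, with 4 in repopulating microglia, 15 in bone-marrow macrophages and 2 in wild-type microglia as its reads in all.

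Gpr84, a receptor for medium-chain fatty acids that is induced in activated myeloid cells, was high in both kinds of microglia (GRCm38 chromosome 15, 103308235 to 103310612, minus strand). Its normalised counts were 2633, 2536 and 2774 in repopulating microglia, 570.0, 651 and 755 in bone-marrow macrophages and 2570 and 1605 in wild-type microglia. The bone-marrow macrophages were lowest and overlapped neither group, while the repopulating libraries overlapped the wild-type range. Gpr84 was 2.01 ± 0.18 higher on the log2 scale in repopulating microglia than in bone-marrow macrophages, and fell by 1.63 ± 0.20 in bone-marrow macrophages relative to wild-type microglia (limma adjusted p = 9.94e-05 and 0.000411). Its difference between repopulating and wild-type microglia, 0.38 with a 95% interval of -0.08 to 0.85, did not pass (limma adjusted p = 0.271).

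Gpr183, an oxysterol receptor that guides immune cells within tissues, overlaps Ubac2 on the other strand (GRCm38 chromosome 14, 121952551 to 121965195, minus strand). Its normalised counts were 1516, 1982 and 1440 in repopulating microglia, 1047, 1296 and 1161 in bone-marrow macrophages and 2341 and 2237 in wild-type microglia. Repopulating microglia lay between the other groups without overlap. Gpr183 fell by 0.98 ± 0.17 on the log2 scale in bone-marrow macrophages relative to wild-type microglia (limma adjusted p = 0.002). In repopulating microglia relative to bone-marrow macrophages it rose by 0.49 ± 0.15 (limma adjusted p = 0.0371). That call ended with other scalings of the libraries (adjusted p = 0.0522 to 0.219), with edgeR (adjusted p = 0.0533) and without any single library other than repopulating replicate 3 (adjusted p = 0.0538 to 0.148). The log2 difference of -0.49 ± 0.17 from wild-type microglia did not pass in repopulating microglia (limma adjusted p = 0.106, or 0.0407 without repopulating replicate 2). Ch25h, the enzyme that makes the precursor of its oxysterol ligand, averaged 188 ± 159.8 normalised counts in repopulating microglia, 488 ± 62.8 in bone-marrow macrophages and 56.1 ± 20.4 in wild-type microglia (SD, n = 3, 3 and 2). Ch25h was 3.14 ± 0.84 higher on the log2 scale in bone-marrow macrophages than in wild-type microglia (limma adjusted p = 0.0157), a call lost without wild-type replicate 1 (adjusted p = 0.0571) or 2 (adjusted p = 0.107).

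Gpr31b, the mouse form of a receptor that senses lactate and pyruvate on gut macrophages, was found mainly in bone-marrow macrophages (GRCm38 chromosome 17, 13051014 to 13052296, minus strand). It had 10.4, 17.7 and 6.91 normalised counts in repopulating microglia, 93.2, 73.2 and 65.3 in bone-marrow macrophages and 5.34 and 4.07 in wild-type microglia. The groups were separate, with bone-marrow macrophages highest and wild-type microglia lowest. Its level in bone-marrow macrophages rose by 3.77 ± 0.41 over wild-type microglia on the log2 scale, and in repopulating microglia it fell by 2.70 ± 0.37 against bone-marrow macrophages (limma adjusted p = 0.000197 and 0.000803). Gpr35, for which the tryptophan metabolite kynurenic acid has been proposed as a ligand, varied little, with 368, 332 and 303 normalised counts in repopulating microglia, 247, 239.7 and 287 in bone-marrow macrophages and 308 and 247 in wild-type microglia. It passed in no comparison (limma adjusted p = 0.328 for repopulating relative to wild-type microglia, 0.648 for bone-marrow macrophages relative to wild-type microglia and 0.0907 for repopulating microglia relative to bone-marrow macrophages). The last of these was 0.0231 without repopulating replicate 3. Gpr18, a receptor of lymphocytes for which lipid ligands have been proposed, was low, with normalised counts of 8.5, 10.3 and 11.5 in repopulating microglia, 10.8, 9.55 and 14.1 in bone-marrow macrophages and 38.5 and 16.3 in wild-type microglia, and also passed in none. Gpr18 did pass as lower in bone-marrow macrophages than in wild-type microglia under some alternatives. Among them were the fit without repopulating replicate 3 (limma adjusted p = 0.0412) and that on the 2 groups alone (adjusted p = 0.0353). Like Gpr183, Gpr18 overlaps Ubac2 on the other strand. In wild-type replicates 1 and 2 the T and NK cell markers summed to 200 and 51.9, and the B cell markers to 306 and 345. The T and NK sum was 2.95 to 19.6 in repopulating microglia and 58.2 to 74.2 in bone-marrow macrophages. The part of these markers in the Gpr18 values was not tested. The cannabinoid-related receptor Gpr55 had 3 reads in all in repopulating microglia, 2 in bone-marrow macrophages and 1 in wild-type microglia, and Gpr119, a lipid receptor of the gut and pancreas, had no read.

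**Figure D3:**
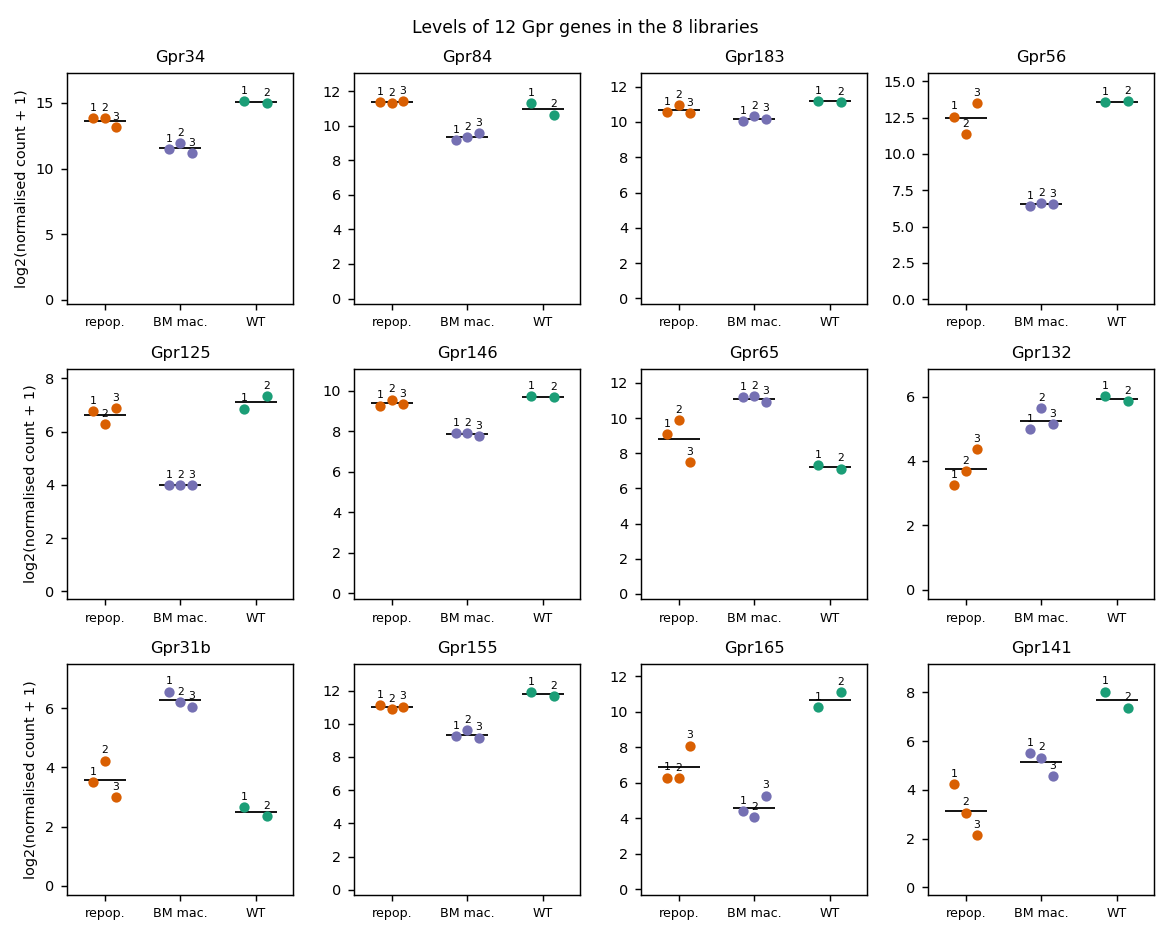
Each point is a library, numbered by replicate, and bars are group means of log2(normalised count + 1) for 12 members, with repopulating microglia on the left, bone-marrow macrophages in the middle and wild-type microglia on the right. Gpr56 and Gpr125 separate both kinds of microglia from bone-marrow macrophages, while Gpr65 and Gpr31b are highest in bone-marrow macrophages.

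Adhesion receptors numbered 16 in the table, of which 5 were tested and 3 had no read. Gpr56, Gpr125, Gpr116 and Gpr97 were lower in bone-marrow macrophages than in wild-type microglia, the last 2 at low counts. Gpr56, now named Adgrg1, binds collagen in the developing mouse cortex and is a marker of resident microglia (GRCm38 chromosome 8, 94974751 to 95014217, plus strand). Its normalised counts were 6035, 2624 and 11474 in replicates 1 to 3 of the repopulating microglia, 85.2, 97.6 and 92.6 in bone-marrow macrophages and 12076 and 12718 in wild-type microglia. Bone-marrow macrophages lay far below every microglial library, and repopulating replicate 3 came close to the wild-type level while replicate 2 was the lowest microglial library. Gpr56 was lower in bone-marrow macrophages than in wild-type microglia by log2 -7.06 ± 0.48, or 134-fold, and higher in repopulating microglia than in bone-marrow macrophages by 5.93 ± 0.43 (limma adjusted p = 2.21e-05 and 3.71e-05). The window before the second of its starts is the one with TGANTCA. Between repopulating and wild-type microglia its log2 difference of -1.13 ± 0.48 did not pass (limma adjusted p = 0.177). Without repopulating replicate 3 it was -1.64 and passed (adjusted p = 0.000826).

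Gpr56 and Gpr97 lie next to each other in this order on chromosome 8, both on the plus strand, with a gap of 3.475 kilobases. Gpr97, now Adgrg3, an adhesion receptor of neutrophils, had 5.67, 2.95 and 1.15 normalised counts in repopulating microglia, 2.84, 0 and 0.882 in bone-marrow macrophages and 13.9 and 23.4 in wild-type microglia. Both wild-type libraries lay above all others. It was lower in bone-marrow macrophages than in wild-type microglia by log2 -3.30 ± 0.77 (limma adjusted p = 0.00889), and its difference of -2.31 ± 0.77 in repopulating relative to wild-type microglia did not pass (adjusted p = 0.1). Without either wild-type library Gpr97 stayed below the minimum for testing, so its call rests on both. No library of the other groups reached that minimum. Gpr97 could thus be tested only because it was high in wild-type microglia, and its p-values do not allow for this selection. Of the 8 neutrophil markers, 8 were called lower in repopulating and 8 in bone-marrow macrophage libraries than in wild-type microglia. Their summed level lay at 1613 to 3058 in repopulating microglia, 789 to 1302 in bone-marrow macrophages and 26111 to 27966 in wild-type microglia, and their part in the Gpr97 result was not tested.

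Gpr125, now Adgra3, which acts in Wnt and planar polarity signalling in zebrafish, stood at 109, 76.7 and 116 normalised counts in repopulating microglia, 14.8, 14.8 and 15 in bone-marrow macrophages and 115 and 161 in wild-type microglia. It fell by 3.11 ± 0.26 on the log2 scale in bone-marrow macrophages relative to wild-type microglia and rose by 2.66 ± 0.23 in repopulating microglia relative to bone-marrow macrophages (limma adjusted p = 5.3e-05 and 8.33e-05). The libraries of both kinds of microglia overlapped (limma adjusted p = 0.296). Gpr116, now Adgrf5, a receptor of lung epithelium and endothelium, had 6.61, 5.9 and 70.3 normalised counts in repopulating microglia, 2.84, 0 and 2.65 in bone-marrow macrophages and 16 and 58 in wild-type microglia. Repopulating replicate 3 and wild-type replicate 2 were highest, as they were for the summed level of 7 endothelial and pericyte markers. That sum was 239, 238 and 503 in repopulating microglia, 70.5, 78.5 and 84.7 in bone-marrow macrophages and 421 and 651 in wild-type microglia. Of the 7, 5 were called lower and none higher in bone-marrow macrophages than in wild-type microglia. Cdh5, Pdgfrb and Rgs5 were highest in the same libraries as Gpr116, while Pecam1 and Cldn5 were highest in wild-type replicates 2 and 1. Kdr was highest in repopulating replicate 1, at 157. Flt1 was highest in repopulating replicate 3, at 54.1, followed by bone-marrow macrophage replicate 2, at 49.8. No marker of this list was at 0 in every library, and its part in the Gpr116 values was not tested. Gpr116 fell by 3.72 ± 1.10 in bone-marrow macrophages relative to wild-type microglia (limma adjusted p = 0.0246), a call lost without wild-type replicate 1 (adjusted p = 0.0505), wild-type replicate 2 (adjusted p = 0.181) or bone-marrow macrophage replicate 2 (adjusted p = 0.0757).

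Among adhesion receptors below the minimum, Gpr98, now Adgrv1, a giant receptor of inner ear hair cells, had 4 reads in all in repopulating microglia, 28 in bone-marrow macrophages and 0 in wild-type microglia. Gpr124, needed for brain blood vessels in mice, had reads of 21 in repopulating microglia, 15 in bone-marrow macrophages and 12 in wild-type microglia. Gpr126, needed for myelination by Schwann cells, had 5 in repopulating microglia, 20 in bone-marrow macrophages and 11 in wild-type microglia. Gpr64, Gpr111, Gpr115 and Gpr128 had a read and at most 3 reads in any group. Gpr110, Gpr123 and Gpr133 had no read in any library.

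Of the 4 proton-sensing receptors, which respond to acid outside the cell, 3 were tested, and Gpr65 and Gpr132 differed in their order of groups. Gpr65 signals through cyclic AMP in acid conditions and is known from lymphocytes and macrophages (GRCm38 chromosome 12, 98268635 to 98276644, plus strand). Its normalised counts were 536, 955 and 179.7 in replicates 1 to 3 of the repopulating microglia, 2299, 2398 and 1953 in bone-marrow macrophages and 158 and 138 in wild-type microglia. Bone-marrow macrophages were highest without overlap, and repopulating replicate 3 lay near the wild-type libraries. Gpr65 was 3.89 ± 0.55 higher on the log2 scale, or 14.8-fold, in bone-marrow macrophages than in wild-type microglia, and fell by 2.29 ± 0.49 in repopulating microglia relative to bone-marrow macrophages (limma adjusted p = 0.000759 and 0.00807). Between repopulating and wild-type microglia it differed by 1.60 ± 0.55 and did not pass (limma adjusted p = 0.107). It passed without repopulating replicate 3 (log2 2.27, adjusted p = 1.47e-05) and with DESeq2 (adjusted p = 0.00304). With a block on replicate number it passed too (limma adjusted p = 0.0409). The 4 markers of border-associated macrophages summed to 532, 875 and 298 in repopulating replicates 1 to 3. They summed to 5183 to 6333 in bone-marrow macrophages and 314 to 542 in wild-type microglia. In bone-marrow macrophages relative to wild-type microglia 2 of the 4, Mrc1 and Pf4, were called higher and none lower. Lyve1 and Cd163 reached at most 9.55 and 23.8 normalised counts in bone-marrow macrophages, and 17.3 and 63 in wild-type microglia. Both were highest among repopulating libraries in replicate 3. The part of these markers in the Gpr65 values was not tested.

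Gpr132, for which oxidised lipids have also been proposed as ligands, had 8.5, 11.8 and 19.6 normalised counts in repopulating microglia, 30.7, 48.8 and 34.4 in bone-marrow macrophages and 64.1 and 56.9 in wild-type microglia. Repopulating microglia were lowest and wild-type microglia highest, without overlap. It was lower in repopulating microglia than in wild-type microglia by log2 -2.18 ± 0.38 and than in bone-marrow macrophages by -1.49 ± 0.34 (limma adjusted p = 0.0133 and 0.01). The first had an adjusted p of 0.136 without wild-type replicate 1 and 0.0886 without replicate 2. Gpr4, the proton sensor of endothelium, was not tested, with reads of 7 in repopulating microglia, 2 in bone-marrow macrophages and 21 in wild-type microglia in all.

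Of 44 other orphan or unplaced receptors, 10 were tested. In repopulating relative to wild-type microglia 1 was called higher and 2 lower, in bone-marrow macrophages relative to wild-type microglia 1 higher and 5 lower, and in repopulating microglia relative to bone-marrow macrophages 4 higher and 2 lower. These were 30.0%, 60.0% and 60.0% of the 10, against 8.61%, 43.5% and 30.9% of all tested genes. Gpr165, an orphan receptor on the X chromosome (96713441 to 96719388, plus strand, GRCm38), had 77.4, 76.7 and 274 normalised counts in replicates 1 to 3 of the repopulating microglia, 20.5, 15.9 and 37.9 in bone-marrow macrophages and 1234 and 2233 in wild-type microglia. Every repopulating library lay below both wild-type libraries and above the bone-marrow macrophages. Its log2 fold over wild-type microglia was -3.81 ± 0.58 in repopulating microglia and -6.10 ± 0.58 in bone-marrow macrophages (limma adjusted p = 0.00885 and 9.78e-05). The fold of repopulating microglia had an adjusted p of 0.0714 without wild-type replicate 1 and 0.0871 without replicate 2. It was 2.30 ± 0.52 higher in repopulating microglia than in bone-marrow macrophages (adjusted p = 0.0103 by the same test). Gpr141, an orphan receptor of myeloid cells, had 17.9, 7.38 and 3.46 normalised counts in repopulating microglia, 44.3, 39.2 and 22.9 in bone-marrow macrophages and 261 and 166 in wild-type microglia. Unlike Gpr165, it was lowest in all 3 repopulating libraries, by log2 -4.55 ± 0.57 against wild-type microglia and -1.98 ± 0.51 against bone-marrow macrophages (limma adjusted p = 0.00399 and 0.0183). The adjusted p of Gpr141 in repopulating relative to wild-type microglia was 0.0721 without wild-type replicate 1 and 0.0349 without replicate 2. Against bone-marrow macrophages it was 0.0751 without bone-marrow macrophage replicate 1 and 0.0664 without replicate 2. In bone-marrow macrophages it was -2.57 ± 0.57 against wild type (adjusted p = 0.00717), or an adjusted p of 0.0707 without wild-type replicate 1. The 6 markers of monocytes and recruited macrophages summed to 316 to 1793 in repopulating microglia, 4498 to 5926 in bone-marrow macrophages and 3422 to 5617 in wild-type microglia. Of the 6, none was called higher and 4 lower in repopulating relative to wild-type microglia, and 2 higher and 3 lower in bone-marrow macrophages relative to wild-type microglia. The part of these and of the neutrophil markers in the Gpr141 and Gpr132 values was not tested.

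Gpr162, an orphan receptor best known from the brain, rose in repopulating microglia, with 157, 183 and 166 normalised counts, against 64.8, 42.4 and 69.7 in bone-marrow macrophages and 52.4 and 61 in wild-type microglia. Every repopulating library lay above all others, which overlapped. The rise was 1.56 ± 0.24 on the log2 scale over wild-type microglia and 1.53 ± 0.22 over bone-marrow macrophages (limma adjusted p = 0.00954 and 0.00104). The first of these was 0.109 without wild-type replicate 1 and 0.0614 without replicate 2. Gpr146, which acts in cholesterol metabolism in mouse liver, stood at 610.1, 749.7 and 643 normalised counts in repopulating microglia, 238, 241 and 218 in bone-marrow macrophages and 842 and 829.7 in wild-type microglia. Its repopulating libraries lay between those of the other groups. It fell by 1.85 ± 0.14 in bone-marrow macrophages relative to wild-type microglia and was 1.52 ± 0.12 higher in repopulating microglia than in bone-marrow macrophages (limma adjusted p = 3.13e-05 and 5.58e-05). Gpr157, a receptor of primary cilia on neural progenitors in mice, showed the same directions at -1.16 ± 0.23 and 0.67 ± 0.21 (limma adjusted p = 0.00439 and 0.0375). Its first call was lost without wild-type replicate 1 (adjusted p = 0.0521). Its second ended with equal totals (adjusted p = 0.169) and without bone-marrow macrophage replicates 1, 2 or 3 (adjusted p = 0.12, 0.0682 and 0.118) or repopulating replicate 2 (adjusted p = 0.0847).

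Gpr160, an orphan receptor, was similar in mean and wide in spread, with 709, 846 and 325 normalised counts in replicates 1 to 3 of the repopulating microglia, 494, 519 and 481 in bone-marrow macrophages and 627 and 439 in wild-type microglia. Replicate 3 of the repopulating microglia was the lowest library of all, and replicates 1 and 2 were the highest. Gpr160 passed in no comparison (limma adjusted p = 0.643 to 0.875), while without repopulating replicate 3 it was 0.56 higher in repopulating than in wild-type microglia (adjusted p = 0.0241) and 0.64 higher than in bone-marrow macrophages (adjusted p = 0.00369). Gpr176, a receptor of the mouse circadian clock, had 5.67, 4.43 and 0 normalised counts in repopulating microglia, 17, 12.7 and 22 in bone-marrow macrophages and 0 and 2.03 in wild-type microglia. Only the bone-marrow macrophage libraries reached the minimum for testing. Gpr176 could thus be tested only because it was high in that group, and its p-values do not allow for this selection. On the log2 scale it was 3.36 ± 0.90 higher in bone-marrow macrophages than in wild-type microglia (limma adjusted p = 0.0158). It fell by 2.43 ± 0.80 in repopulating microglia relative to bone-marrow macrophages (limma adjusted p = 0.0477). The first call was lost without wild-type replicate 1 (adjusted p = 0.127) or bone-marrow macrophage replicates 1 or 3 (adjusted p = 0.0501 and 0.0601). The second ended without any one bone-marrow macrophage or wild-type library (adjusted p = 0.0533 to 0.157). Gpr153, an orphan receptor, had no read in bone-marrow macrophages, with 0, 4.43 and 16.1 normalised counts in repopulating microglia and 10.7 and 9.15 in wild-type microglia. The difference between bone-marrow macrophages and wild type passed (limma adjusted p = 0.03) and ended without bone-marrow macrophage replicates 1, 2 or 3 (adjusted p = 0.0706, 0.069 and 0.0727) or wild-type replicate 2 (adjusted p = 0.12). It ended with quantile normalisation too (adjusted p = 0.053), and without wild-type replicate 1 or repopulating replicate 3 Gpr153 stayed below the minimum for testing. Gpr19, an orphan receptor with at most 42.1 normalised counts in any library, passed in no comparison. In bone-marrow macrophages it lay 1.66 ± 0.66 above wild-type microglia on the log2 scale (limma adjusted p = 0.0696). That difference passed with equal totals (adjusted p = 0.0459) and without repopulating replicate 3 (adjusted p = 0.016). It also passed with a block on replicate number (adjusted p = 0.0391) and on the libraries of the 2 groups alone (adjusted p = 0.0177).

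**Figure D4:**
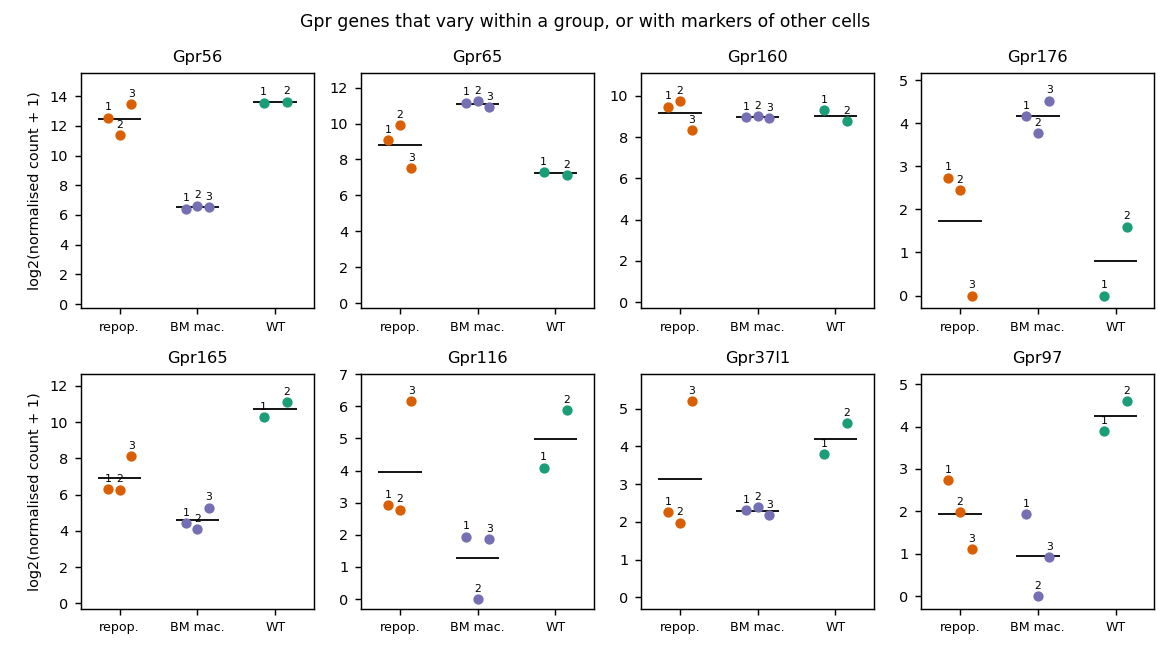
Points are libraries numbered by replicate and bars are group means of log2(normalised count + 1) for 8 members, with repopulating microglia, bone-marrow macrophages and wild-type microglia from left to right. Repopulating replicate 3 is the highest of its group for Gpr56, Gpr165, Gpr116 and Gpr37l1 and the lowest for Gpr65, Gpr160, Gpr176 and Gpr97.

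Multipass proteins of intracellular membranes share the Gpr symbol, with Gpr137b-ps, a transcribed pseudogene in the annotation, counted among them. Of these 9 members, 8 were tested, Gpr137b-ps included. None was called higher in bone-marrow macrophages than in wild-type microglia and 5 were called lower, or 62.5% against 22.2% of all tested genes called lower. In repopulating microglia relative to bone-marrow macrophages 5 were called higher and none lower, or 62.5% against 16% of all tested genes called higher. Gpr155, known as a cholesterol sensor of the lysosome from human cells, stood at 2223, 1889 and 2093 normalised counts in repopulating microglia, 611, 777 and 574 in bone-marrow macrophages and 3858 and 3284 in wild-type microglia (GRCm38 chromosome 2, 73341506 to 73386572, minus strand). The groups did not overlap. Its log2 fold over wild-type microglia was -0.79 ± 0.16 in repopulating microglia and -2.45 ± 0.16 in bone-marrow macrophages (limma adjusted p = 0.0236 and 2.08e-05). In repopulating microglia the adjusted p was 0.223 without wild-type replicate 1 and 0.0974 without replicate 2, 0.0519 without repopulating replicate 1 and 0.0529 without bone-marrow macrophage replicate 1. It was 1.67 ± 0.15 higher in repopulating microglia than in bone-marrow macrophages (limma adjusted p = 8.44e-05).

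Gpr107, a Golgi protein of retrograde transport, was lower in bone-marrow macrophages, with normalised counts of 988 ± 108 in repopulating microglia, 657 ± 40.1 in bone-marrow macrophages and 973 ± 38.8 in wild-type microglia (SD, n = 3, 3 and 2). The log2 difference was -0.57 ± 0.14 in bone-marrow macrophages against wild type and 0.58 ± 0.12 in repopulating microglia relative to bone-marrow macrophages (limma adjusted p = 0.0102 and 0.00704). The first was lost without wild-type replicate 1 (adjusted p = 0.0513) or 2 (adjusted p = 0.0756). Its relative Gpr108 averaged 702 ± 31.1 in repopulating microglia, 529 ± 26.7 in bone-marrow macrophages and 595 ± 18.9 in wild-type microglia. It was 0.41 ± 0.11 higher in repopulating microglia than in bone-marrow macrophages (limma adjusted p = 0.0204), which ended with equal totals (adjusted p = 0.3) and without bone-marrow macrophage replicates 1 or 2 (adjusted p = 0.0997 and 0.0696) or repopulating replicate 1 (adjusted p = 0.0687).

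The lysosomal protein Gpr137b, which acts on the growth kinase mTOR, averaged 155 ± 42.5 normalised counts in repopulating microglia, 78.4 ± 15.9 in bone-marrow macrophages and 293 ± 67.1 in wild-type microglia (SD, n = 3, 3 and 2). It fell by 1.89 ± 0.28 in bone-marrow macrophages relative to wild-type microglia and was 0.95 ± 0.25 higher in repopulating microglia than in bone-marrow macrophages (limma adjusted p = 0.00105 and 0.0214). The second call ended with equal totals (adjusted p = 0.0644) and without bone-marrow macrophage replicates 1 or 3 (adjusted p = 0.0622 and 0.0846) or repopulating replicate 1 (adjusted p = 0.076). Gpr137b-ps, its copy on the same chromosome, averaged 280.4 ± 50.1 in repopulating microglia, 216 ± 36.1 in bone-marrow macrophages and 216 ± 78.3 in wild-type microglia and passed in no comparison. Both values are uncertain, since reads of near-identical copies may have been split or dropped in the counting. Gpr137, a related protein, was -0.89 ± 0.20 in bone-marrow macrophages against wild type and 1.17 ± 0.18 in repopulating microglia relative to bone-marrow macrophages (limma adjusted p = 0.00759 and 0.0015), and overlaps Bad on the other strand. The first of these ended without wild-type replicate 1 (adjusted p = 0.0789). Gpr180, a membrane protein, fell by 0.79 ± 0.23 in bone-marrow macrophages against wild type (limma adjusted p = 0.0223), a call lost without wild-type replicate 1 (adjusted p = 0.175) or bone-marrow macrophage replicates 1 or 2 (adjusted p = 0.0607 and 0.0689). Gpr89, which regulates the acidity of the Golgi, averaged 184 ± 46.7 in repopulating microglia, 174 ± 15.9 in bone-marrow macrophages and 192 ± 6.54 in wild-type microglia in normalised counts and passed in no comparison.

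Gpr37l1, a receptor of astrocytes for which prosaposin has been proposed as a ligand, had 3.78, 2.95 and 35.7 normalised counts in repopulating microglia, 3.98, 4.24 and 3.53 in bone-marrow macrophages and 12.8 and 23.4 in wild-type microglia. The 5 astrocyte markers summed to 90.7, 60.5 and 232 in repopulating microglia, 53.4, 91.2 and 68.8 in bone-marrow macrophages and 84.4 and 76.3 in wild-type microglia. This sum was also highest in repopulating replicate 3, where Slc1a2 and Gja1 had their highest values, 137 and 44.9. Aqp4 and Aldh1l1 were highest in repopulating replicate 1, at 9.44 and 32.1, and Gfap in bone-marrow macrophage replicate 3, at 30. The part of these markers in the Gpr37l1 values was not tested. Gpr37l1 passed in no comparison, and without repopulating replicate 3 it was lower in repopulating than in wild-type microglia (log2 -2.08, limma adjusted p = 0.0158). Without that library it was also lower in bone-marrow macrophages than in wild-type microglia (log2 -1.90, limma adjusted p = 0.00570). Gpr37, of the oligodendrocyte lineage, had reads of 2 in repopulating microglia, 2 in bone-marrow macrophages and 5 in wild-type microglia in all, and Gpr17, of oligodendrocyte precursors, had none. The lymphocyte receptor Gpr171 had reads of 4 in repopulating microglia, 30 in bone-marrow macrophages and 26 in wild-type microglia, the most in any wild-type library being 19.3 normalised counts, the highest value of any untested member. Gpr174, also of lymphocytes, had 2 in repopulating microglia, 13 in bone-marrow macrophages and 2 in wild-type microglia.

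No member was tested among 3 constitutively active receptors, 5 P2Y-like receptors and 3 class C receptors. Of the first, Gpr6 and Gpr12 had no read and Gpr3 had 3 in repopulating microglia, 1 in bone-marrow macrophages and 0 in wild-type microglia. In class C, Gpr158 and Gpr179 had at most 6 reads in any group. Of the orphan receptors that were not tested, 12 had no read in any library, namely Gpr1, Gpr26, Gpr39, Gpr45, Gpr50, Gpr61, Gpr75, Gpr139, Gpr142, Gpr143, Gpr151 and Gpr161. Gpr30, an oestrogen receptor now named Gper1, had reads of 10 in repopulating microglia, 0 in bone-marrow macrophages and 7 in wild-type microglia. Gpr83, a receptor known from regulatory T cells, had 18 in repopulating microglia, 2 in bone-marrow macrophages and 1 in wild-type microglia, and Gpr85, an orphan receptor of the brain, 2 in repopulating microglia, 16 in bone-marrow macrophages and 2 in wild-type microglia. Gpr137c, the remaining intracellular member, had 0 in repopulating microglia, 18 in bone-marrow macrophages and 6 in wild-type microglia. The other untested orphans had at most 9 reads in any group.

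The 7 calls between repopulating and wild-type microglia depended on the wild-type libraries, and all but that of Gpr141 on both. With 1 wild-type library left out, most calls over all genes were lost too, so this loss was not particular to the Gpr genes. The folds of all 7 kept their direction in these fits. Without repopulating replicate 3, 6 of 32 tested members were called higher and 9 lower, among them Gpr56, Gpr65, Gpr160 and Gpr37l1. Calls over all genes rose as well, with 1700 higher and 1269 lower of 11322 tested. With the spread taken from the libraries of these 2 groups alone, 1 of 31 tested members was called higher and 1 lower. Over all 11126 genes tested in that fit, 36 were called higher and 46 lower. In bone-marrow macrophages relative to wild-type microglia 12 of the 21 calls, and in repopulating microglia relative to bone-marrow macrophages 14 of the 20, passed under every alternative tried, a gene that an alternative left untested not being counted. Gpr34, Gpr56, Gpr65, Gpr84, Gpr31b, Gpr125, Gpr146, Gpr155 and Gpr165 were among those that passed throughout in both. The matching share over all called genes was not worked out, for these members or for the lists of partners that follow. These counts thus do not show how the Gpr genes compare with other genes.

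The partners of these receptors, taken from lists of G protein subunits, regulators, kinases, cyclases and ligand enzymes, gave 5 calls in repopulating relative to wild-type microglia, 23 in bone-marrow macrophages relative to wild-type microglia and 18 in repopulating microglia relative to bone-marrow macrophages. Of the 48 genes tested on these lists that is 10.4%, 47.9% and 37.5%, shares near the 8.61%, 43.5% and 30.9% of all tested genes. Of these calls 0, 8 and 9 passed under every alternative. The single lists, each of 6 to 10 tested genes, lay on either side of the shares of all tested genes, which are the background for their counts. Of 10 tested alpha subunits of G proteins, which carry the signal into the cell, 2 were higher and none lower in repopulating than in wild-type microglia, with a median log2 fold of 0.06. Gnas, the stimulatory alpha subunit, averaged 8829 ± 629.8 normalised counts in repopulating microglia, 6147 ± 211 in bone-marrow macrophages and 4122 ± 30.5 in wild-type microglia (SD, n = 3, 3 and 2). It rose by 1.10 ± 0.13 on the log2 scale in repopulating relative to wild-type microglia (limma adjusted p = 0.0025), a call lost without wild-type replicate 1 (adjusted p = 0.051). Alpha subunits had 2 higher and 3 lower in bone-marrow macrophages relative to wild-type microglia (median 0.35), and 3 higher and 1 lower in repopulating microglia relative to bone-marrow macrophages (median -0.01).

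Of 10 beta and gamma subunits, none was higher and 1 lower in repopulating relative to wild-type microglia (median 0.0091), none higher and 3 lower in bone-marrow macrophages relative to wild-type microglia (median 0.14), and 1 higher and none lower in repopulating microglia relative to bone-marrow macrophages (median -0.01). The 1 that rose there was Gng10, at log2 1.48 ± 0.25 (limma adjusted p = 0.00222). Of 6 adenylyl cyclases, which make cyclic AMP, 2 were higher and none lower in repopulating relative to wild-type microglia (median -0.35), 1 higher and 3 lower in bone-marrow macrophages relative to wild-type microglia (median -0.89), and 2 higher and 1 lower in repopulating microglia relative to bone-marrow macrophages (median 1.06). Adcy3, a membrane cyclase, was 1.61 ± 0.26 higher on the log2 scale in repopulating microglia than in bone-marrow macrophages (limma adjusted p = 0.00194).

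Among 9 regulators of G protein signalling, which shorten the signal, none was called in repopulating relative to wild-type microglia (median -0.29), 1 was higher and 4 lower in bone-marrow macrophages relative to wild-type microglia (median -0.35), and 3 were higher and 3 lower in repopulating microglia relative to bone-marrow macrophages (median 0.05). Rgs1 was 1.80 ± 0.31 and Rgs10 -0.91 ± 0.13 in bone-marrow macrophages relative to wild-type microglia (limma adjusted p = 0.0022 and 0.000698). Rgs5, 1 of the 4 lower, is also on the pericyte list. Of 7 receptor kinases and arrestins, which switch receptors off, none was called in repopulating relative to wild-type microglia (median -0.04), 1 was higher in bone-marrow macrophages relative to wild-type microglia (median 0.33) and 2 were lower in repopulating microglia relative to bone-marrow macrophages (median -0.22). Grk6 was the 1 higher, at 1.54 ± 0.17 (limma adjusted p = 0.000216).

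Of 6 ligands or ligand enzymes, none was called in repopulating relative to wild-type microglia (median -0.14), 2 were higher and 3 lower in bone-marrow macrophages relative to wild-type microglia (median -0.44), and 2 were higher in repopulating microglia relative to bone-marrow macrophages (median 0.24). Abhd12, the enzyme that breaks down lysophosphatidylserine, averaged 8277 ± 289 normalised counts in repopulating microglia, 3822 ± 290.5 in bone-marrow macrophages and 9469 ± 1180 in wild-type microglia. Abhd12 fell by 1.31 ± 0.14 on the log2 scale in bone-marrow macrophages relative to wild-type microglia and was 1.12 ± 0.12 higher in repopulating microglia than in bone-marrow macrophages (limma adjusted p = 0.000172 and 0.000271). Tgm2, a transglutaminase reported to bind Gpr56, was -1.05 ± 0.19 in bone-marrow macrophages relative to wild-type microglia and 0.97 ± 0.17 in repopulating microglia relative to bone-marrow macrophages (limma adjusted p = 0.00278 and 0.00307).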

How the data were processed

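Sorted mouse cells were sequenced with a kit (TruSeq RNA, version 2) that does not keep strand. The submitters' processing notes name build mm10 and the tools DESeq 1.14.0, HTSeq, Bowtie2 2.1.0.0 and TopHat2 2.0.10. What each did, the annotation and the counting settings were not stated. The deposited values are of the unit signal: the authors scaled each library's gene counts by 1 factor, as the values show. Every value above 0 (100%, tolerance 0.01 reads) was a whole multiple of the library's smallest step, taken as 1 read, so whole reads were recovered.

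Groups came from the labels' titles. Columns named for repopulating cells and controls were matched by name, and the remaining 3 by exclusion. Gpr genes were found by symbol, and 19 carry another symbol in RefSeq. Members, roles and lists were chosen with earlier results of these data known. The 11415 genes reaching 10 normalised counts in 2 or more libraries were tested on log2(normalised count + 1) with limma 3.58.1 in R 4.3.3 (variance trend, 1 model of 3 group means, two-sided, adjusted p under 0.05). The fit was checked on simulated counts with the same relative spread for every gene and no library set apart. That check does not cover the outlying repopulating replicate 3 or differences at low counts. Named with values are all called members, the 10 highest of each group and a list chosen for known roles in immune and brain cells. A few genes that meet this rule are not reported here. Gene spans and exon lengths are from GENCODE vM21 (GRCm38, the assembly also called mm10), where 93 of 94 members had 1 locus. Promoter windows are from RefSeq. Alternatives were other pseudocounts, filters and scalings, fits without each library, blocked on replicate number, under other variance settings or on the compared groups only, and edgeR 4.0.16 and DESeq2 1.42.0 on the recovered reads. Reads carried no molecular identifiers, so depth speaks for counting error only. All replicates were kept, as their differences exceeded counting noise.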

Additional observations from a re-analysis of the deposited data

How the results depend on the processing

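Without single libraries, the number of Gpr genes called ran from 0 to 15 in repopulating relative to wild-type microglia, 13 to 23 in bone-marrow macrophages relative to wild-type microglia and 14 to 24 in repopulating microglia relative to bone-marrow macrophages. Over all genes it ran from 67 to 2969, 2821 to 6992 and 2212 to 5335. A lone wild-type library was assumed to vary like the other groups. When the fit held no library but those of the 2 groups, 2 Gpr genes and 82 of all genes were called in repopulating relative to wild-type microglia, against 7 and 983. DESeq2 called 1625 of all genes there. At a minimum of 1 normalised count in every library, 44 members were present in wild-type microglia, and at 100, 15 in bone-marrow macrophages. Scaling to equal totals shifted the median over all genes by log2 -0.11, 0.14 and -0.25 in the 3 comparisons, and the calls over all genes split into 440 higher and 729 lower, 3007 higher and 2068 lower, and 1169 higher and 2934 lower, against 555 and 428, 2428 and 2532, and 1826 and 1700. Whether the replicate numbers pair the samples is not known. Same-numbered deviations correlated at -0.09, -0.0015 and 0.13 between repopulating microglia and bone-marrow macrophages, and not every library correlated best with its own number. These correlations cannot decide it, since deviations from the mean of so few libraries constrain each other. With the replicate block 7, 22 and 19 Gpr genes were called, against 7, 21 and 20. The block ended the call of Gpr155 in repopulating relative to wild-type microglia (adjusted p = 0.056), and those of Gpr157 and Gpr176 in repopulating microglia relative to bone-marrow macrophages (adjusted p = 0.057 and 0.0582). With it Gpr65 passed in repopulating relative to wild-type microglia (adjusted p = 0.0409) and Gpr19 in bone-marrow macrophages relative to wild-type microglia (adjusted p = 0.0391). Gpr116 passed in repopulating microglia relative to bone-marrow macrophages (adjusted p = 0.0414).

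Some small folds that did not pass changed sign. In repopulating against wild-type microglia, Gpr107 was -0.093 with equal totals and -0.020 with quantile normalisation, and Gpr89 0.039 with the replicate block. In bone-marrow macrophages relative to wild-type microglia, equal totals gave Gpr160 0.065, Gpr35 0.043 and Gpr89 0.0042, quantile normalisation Gpr137b-ps -0.047 and Gpr162 -0.081, the replicate block Gpr160 0.14 and Gpr162 -0.034, and DESeq2 Gpr137b-ps -0.0096. In repopulating microglia relative to bone-marrow macrophages, equal totals gave Gpr160 -0.031 and Gpr89 -0.20, and TMM scaling Gpr89 -0.00032. Without single libraries, folds ran from -0.051 to 0.11 for Gpr107, -0.13 to 0.56 for Gpr160, -0.21 to 2.19 for Gpr19 and -0.26 to 0.12 for Gpr89 in repopulating relative to wild-type microglia. They ran from -0.34 to 0.41 for Gpr137b-ps, -0.33 to 0.18 for Gpr160, -0.11 to 0.25 for Gpr162 and -0.26 to 0.058 for Gpr35 in bone-marrow macrophages relative to wild-type microglia, and from -0.051 to 0.64 for Gpr160, -0.18 to 1.43 for Gpr37l1 and -0.12 to 0.26 for Gpr89 in repopulating microglia relative to bone-marrow macrophages. The cause of these changes was not tested. No called fold changed sign under any alternative that gave one.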
